A study of Mus musculus with 2 samples.

Results

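The 10 genes described here encode the PPAR and ERR nuclear receptors, the PGC-1 coactivators, the PPAR partner RXR alpha and the muscle regulator PERM1. They were chosen by symbol, with no measured value in the rule: Ppara, Ppard, Pparg, Rxra, Esrra, Esrrb, Esrrg, Ppargc1a, Ppargc1b and Perm1, out of 55536 annotated genes in the tables. Earlier results of these data were known when these genes and the fixed gene lists below were chosen. All 10 were found, each once. Total RNA had been sequenced from heart tissue of female B6CASTF1/J mice aged 14 days, which are first-generation hybrids of C57BL/6J and CAST/EiJ. The series holds 1 group of 2 libraries, called replicate 1 and replicate 2, and 300 ng of total RNA, with ERCC spike-ins added, went into each; no treatment or mutation is given in the labels. The labels give both libraries the same donor, their shared description speaks of 3 females, and the tissue labels carry different animal numbers, so the SD between them (n = 2) may be partly technical. With 1 group of 2 libraries no test was possible, and the values below are levels, their spread and the intervals deposited with them.

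PPARs are receptors for fatty acids and their derivatives: bound to an RXR, they switch on genes for the uptake, storage and oxidation of fat. ERRs resemble the estrogen receptors but bind no estrogen, and they act on genes of the citric acid cycle, the respiratory chain and fatty acid oxidation, largely through PGC-1 alpha and PGC-1 beta, which bind no DNA themselves. In the heart, which takes over fatty acids as its main fuel after birth, PPARs and ERRs are known as regulators of that fuel supply and of mitochondrial capacity.

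The 2 receptor families and RXR alpha share a short element of their DNA-binding domain, the P box, which is known to set the bases that each receptor recognises. The coding DNA of this stretch, read 5′ to 3′ from the GRCm38 reference along the leading GENCODE M21 transcript, is shown to compare the 7 receptors. Capitals mark the 18 bases of the P box and small letters the 12 coding bases that follow it.
Ppara: TGTGAAGGCTGTAAGGGCttctttcggcga
Ppard: TGCGAGGGGTGCAAGGGCttcttccgccgg
Pparg: TGTGAAGGATGCAAGGGTtttttccgaaga
Rxra: TGTGAGGGCTGCAAGGGCttcttcaagagg
Esrra: TGTGAGGCCTGCAAAGCCttcttcaagagg
Esrrb: TGCGAGGCTTGCAAGGCGttcttcaagaga
Esrrg: TGTGAAGCCTGCAAGGCAttcttcaagagg
Between Ppara and Rxra, and between Ppard and Rxra, 2 of the 18 capitals differ, and between Pparg and Rxra 3 do. Within the ERRs, Esrra and Esrrg differ at 3 bases, and Esrrb differs from each of them at 4. Across the families, Esrra and Rxra differ at 3 and Esrra and Ppara at 5. In Ppara, Ppard and Pparg the stretch is interrupted by an intron after base 15, of 1710, 1590 and 9282 bases, while in Rxra and in each of the 3 ERRs it lies within 1 exon. On the GRCm38 assembly it spans chr15:85787254-85788993 in Ppara, chr17:28295481-28297100 in Ppard and chr6:115441647-115450958 in Pparg, introns included, and chr2:27741787-27741816 in Rxra, all on the plus strand. It lies at chr19:6920073-6920102 on the minus strand in Esrra, and at chr12:86470516-86470545 in Esrrb and chr1:188043710-188043739 in Esrrg on the plus strand. The animals carried 1 CAST/EiJ genome beside the C57BL/6J one, and sequence of that parent was not used here.

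All 10 genes were present at 1 TPM or more in both libraries. TPM, the unit of the levels below, is a transcript abundance divided by length and scaled to a common total, so levels of different genes can be set side by side. The coactivator genes Perm1 and Ppargc1a and the receptor gene Esrra led, and Pparg and Esrrb were lowest. The mean level ran from 73.4 TPM for Perm1 to 5.69 TPM for Esrrb. Scaled to the total of nuclear protein-coding genes instead of all rows, these 2 means were 170.7 and 13.2 TPM. The median of the 10 means was 18.0 TPM, beside 9.14 TPM over the 12876 genes compared between the libraries. In the whole tissue a lower level can come from fewer cells of a type or from less RNA per cell, and these cannot be told apart.

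**Figure D1:**
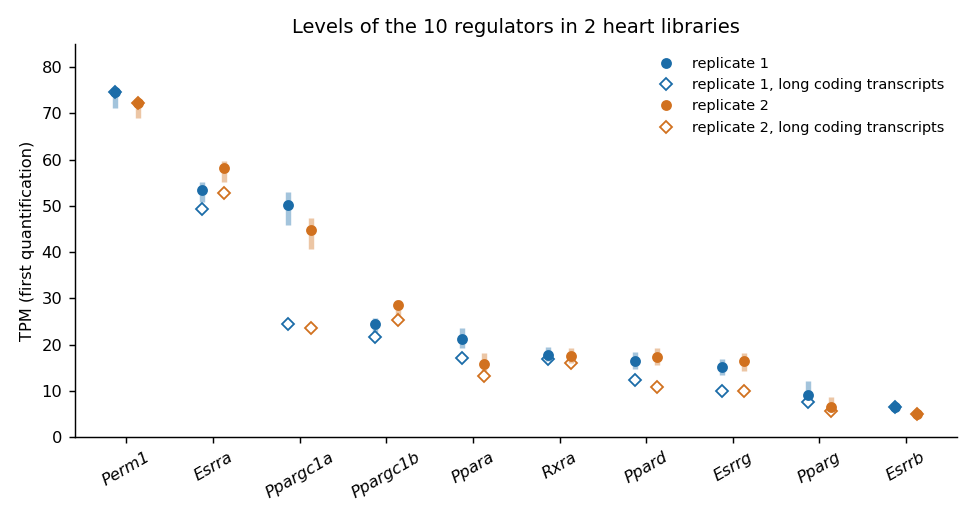
TPM of each regulator in the first quantification, in order of the mean. Filled points are the 2 libraries, bars their deposited intervals, and open diamonds the TPM left when only protein-coding transcripts of at least 1000 bases are summed. Perm1 stands highest at 74.55 and 72.25 TPM, and the diamonds of Ppargc1a lie at 24.41 and 23.61 TPM, well under its filled points.

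Ppara, the PPAR best known for fatty acid oxidation in heart and liver, lies on mm10 at chr15:85734983-85802819 on the plus strand. It stood at 21.21 TPM in replicate 1 and 15.69 TPM in replicate 2 (mean 18.5 ± 3.90, SD, n = 2), from 1546 and 1141 expected counts. Its deposited intervals, 19.2 to 23.7 TPM in replicate 1 and 14.2 to 18.1 TPM in replicate 2, did not overlap. Replicate 1 was thus the higher library for this gene.

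Ppard, the PPAR found in most tissues (chr17:28232700-28301474, plus strand), stood at 16.51 TPM in replicate 1 and 17.33 TPM in replicate 2, from 1129 and 1054 expected counts. The mean was 16.9 ± 0.580 TPM (SD, n = 2), and the deposited intervals of the libraries overlapped. Ppara and Ppard were close to each other. The log2 ratio of Ppara over Ppard was 0.36 in replicate 1 and -0.14 in replicate 2. The mean log2 ratio of 0.11 ± 0.36 (SD, n = 2) was smaller than its spread.

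Pparg, the PPAR that drives fat cell formation (chr6:115360951-115490399, plus strand), was the lowest of the 3, at 9.03 TPM in replicate 1 and 6.45 TPM in replicate 2 (mean 7.74 ± 1.82, SD, n = 2). These levels rest on 394 and 291 expected counts, the fewest of any of the 10 genes. The intervals, 8.30 to 12.1 TPM in replicate 1 and 6.05 to 8.61 TPM in replicate 2, overlapped. Ppara exceeded Pparg by 1.26 ± 0.04 on the log2 scale, 2.39-fold, and Ppard exceeded it by 1.15 ± 0.39 (SD, n = 2 each). Of the summed PPAR transcripts, 46.75 TPM in replicate 1 and 39.47 TPM in replicate 2, Ppara made up 42.6% ± 3.97, Ppard 39.6% ± 6.07 and Pparg 17.8% ± 2.10 (SD, n = 2).

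Rxra, the RXR that pairs with PPARs in most tissues (chr2:27676440-27762957, plus strand), varied least of the 10 in TPM: 17.65 TPM in replicate 1 and 17.42 TPM in replicate 2, a mean of 17.5 ± 0.163 (SD, n = 2). It had 2174 and 1989 expected counts. The other 2 RXR genes stood at much the same level. Rxrb had 18.72 TPM in replicate 1 and 19.79 TPM in replicate 2, and Rxrg 19.19 and 18.66 TPM. The log2 ratio of Rxra over Rxrb was -0.13 ± 0.07 and that of Rxra over Rxrg -0.11 ± 0.02 (SD, n = 2 each). Over protein-coding transcripts of at least 1000 bases alone, an alternative chosen after seeing the data, the first of these turned to 0.30. Each of the 3 RXR genes thus stood near Ppara and Ppard, and above Pparg in both libraries.

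Esrra, the gene for ERR alpha, a receptor abundant in tissues that burn much fat (chr19:6910977-6921813, minus strand), was the highest receptor of the set. It had 53.45 TPM in replicate 1 and 58.11 TPM in replicate 2, from 3144 and 3281 expected counts, a mean of 55.8 ± 3.30 (SD, n = 2). The interval of replicate 1 ended at 55.07 TPM and that of replicate 2 began at 55.09 TPM, so the 2 met without overlapping and replicate 2 was slightly higher. Among 23 nuclear receptor genes, these 7 with RXR beta, RXR gamma and 14 fixed others of heart metabolism, Esrra and Thra, the thyroid hormone receptor alpha gene, were at the top with means of 55.8 and 55.6 TPM. Thra stood at 51.40 TPM in replicate 1 and 59.71 TPM in replicate 2, so their order differed between the libraries. The end of Esrra overlaps Trmt112, a gene on the opposite strand with 252.72 and 261.02 expected counts, by 73 bases, and the labels and file headers used here do not say whether counting used strand.

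Esrrg, the gene for ERR gamma, known for its role in the oxidative metabolism of the newborn heart (chr1:187608791-188214885, plus strand), stood at 15.23 TPM in replicate 1 and 16.36 TPM in replicate 2 (mean 15.8 ± 0.799, SD, n = 2), from 1479 and 1440 expected counts. Esrrb, the gene for ERR beta, known from placenta, inner ear and stem cells (chr12:86361117-86521628, plus strand), had 6.49 TPM in replicate 1 and 4.88 TPM in replicate 2 (mean 5.69 ± 1.14, SD, n = 2), from 694 and 507 expected counts. Its intervals did not overlap, and replicate 1 was the higher. Within the family Esrra made up 72.2% ± 1.504 of the TPM, Esrrg 20.4% ± 0.252 and Esrrb 7.39% ± 1.76 (SD, n = 2). Esrra exceeded Esrrg by 1.82 ± 0.01 on the log2 scale, 3.53-fold, the ratio with the smallest spread among 10 pairs in the first quantification, where the second gave 1.90 ± 0.26. Esrra over Ppara, the receptors with the highest mean in the 2 families, came to 1.61 ± 0.39 (SD, n = 2), though Ppard stood above Ppara in replicate 2.

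Perm1, a muscle gene that PGC-1 alpha and ERR alpha induce and that raises oxidative capacity (chr4:156215868-156221307, plus strand), was the highest of the 10. It had 74.55 TPM in replicate 1 and 72.25 TPM in replicate 2 (mean 73.4 ± 1.63, SD, n = 2), from 7968 and 7455 expected counts. Of 11505 protein-coding genes at 1 TPM or more in both libraries, 92.9% were lower. Each of its TPM values lies just above its own interval, 71.2 to 74.4 TPM in replicate 1 and 68.9 to 72.1 TPM in replicate 2, which the tables set around a posterior mean.

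Ppargc1a, the gene for PGC-1 alpha (chr5:51454250-51567726, minus strand), stood at 50.24 TPM in replicate 1 and 44.82 TPM in replicate 2 (mean 47.5 ± 3.83, SD, n = 2), from 4769 and 4286 expected counts, and its intervals overlapped. Ppargc1b, the gene for PGC-1 beta (chr18:61298136-61400431, minus strand), stood at 24.51 TPM in replicate 1 and 28.47 TPM in replicate 2 (mean 26.5 ± 2.80, SD, n = 2), from 2177 and 2473 expected counts. Its intervals lay apart, with replicate 2 higher. Ppargc1a exceeded Ppargc1b by 0.85 ± 0.27 on the log2 scale (SD, n = 2), yet over protein-coding transcripts of at least 1000 bases the log2 ratio came to 0.04, with 0.18 in replicate 1 and -0.10 in replicate 2. Perm1 exceeded Ppargc1a by 0.63 ± 0.08 over all transcripts (SD, n = 2) and by 1.61 over the long coding ones. The 3 coactivator genes together held 149.3 TPM in replicate 1 and 145.5 TPM in replicate 2, of which Perm1 made up 49.8% ± 0.205, Ppargc1a 32.2% ± 2.02 and Ppargc1b 18.0% ± 2.22 (SD, n = 2).

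In the order of means, Perm1, Esrra, Ppargc1a, Ppargc1b, Ppara, Rxra, Ppard, Esrrg, Pparg, Esrrb, some neighbours could be separated and some could not. Both values of the higher gene exceeded both values of the lower for every neighbouring pair except Ppara and Rxra, and Pparg and Esrrb. Deposited intervals within each library were also apart for Perm1 over Esrra, Ppargc1a over Ppargc1b, and Esrrg over Pparg. Within each library they were apart for Pparg over Esrrb too. Across libraries, Pparg at 6.45 TPM in replicate 2 lay just below Esrrb at 6.49 TPM in replicate 1. For the other neighbours the intervals overlapped in at least 1 library. In the second quantification, another estimate from the same libraries, Esrrg moved to 5th place and Rxra, Ppara and Ppard followed it.

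The 2 libraries were set against each other to see how far each gene varied within the group. A gene was called different by a rule of size: at least 2-fold in TPM + 1 after removing the median difference, at least 50 expected counts on average, and deposited intervals that do not overlap. By this rule 0 of the 10 genes were called, against 0.349% of all genes compared, 0.303% higher in replicate 1 and 0.0466% higher in replicate 2. Deposited intervals lay apart for 4 of the 10, against 12.1% of all genes compared. Of these, Ppara and Esrrb had replicate 1 higher, against 5.62% of all genes, and Esrra and Ppargc1b had replicate 2 higher, against 6.5%. The shares over all genes were not matched to the 10 for expected counts. The median size of the difference was 0.14 on the log2 scale over the 10 genes and 0.11 over all genes compared, of which 96.4% differed by less than 0.50.

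Pparg, Ppara and Esrrb differed most among the 10, each higher in replicate 1. The log2 difference, replicate 1 minus replicate 2, was 0.45 for Pparg, 0.44 for Ppara and 0.38 for Esrrb, and 95.4%, 94.9% and 92.1% of all genes compared had a smaller one. The ratio of their CPM, expected counts divided by the library's total in annotated genes, was, replicate 1 over replicate 2, 1.29 for Pparg with an exact Clopper-Pearson 95% interval of 1.10 to 1.501. It was 1.29 for Ppara (1.19 to 1.39) and 1.30 for Esrrb (1.16 to 1.46). Ppargc1b was the largest in the other direction, with a ratio of 0.836 (0.788 to 0.886) and a log2 difference of -0.18. Such an interval holds counting error alone. The intervals of the count ratio held 1 for Perm1, Rxra, Ppard and Esrrg, and the sign of the difference changed with the scaling or quantification for Ppard and Esrrg.

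**Figure D2:**
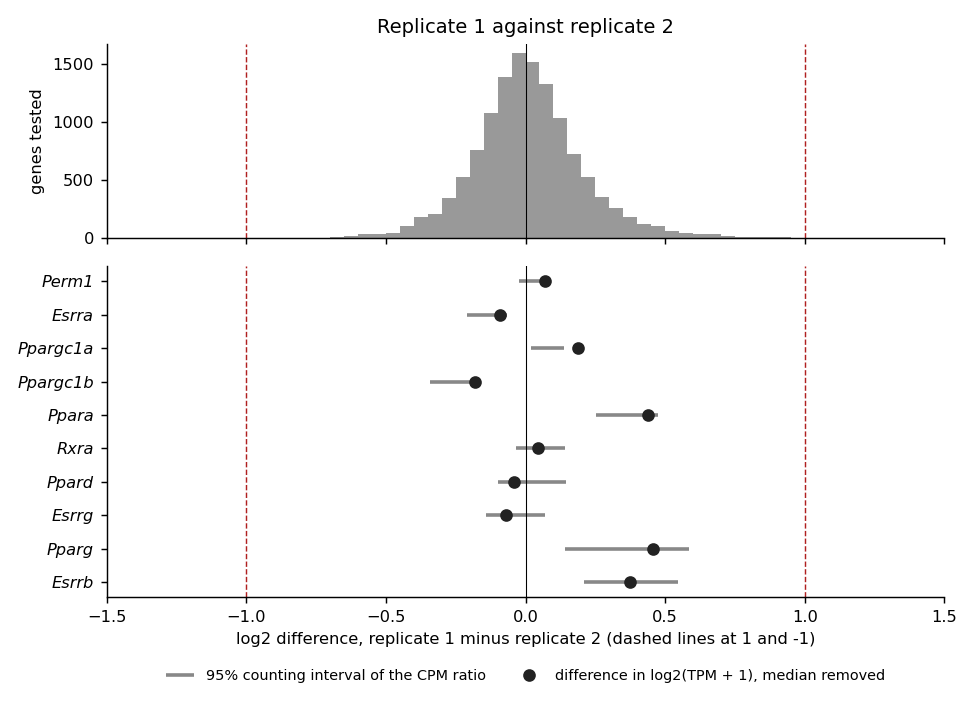
Upper panel, number of genes by log2 difference in TPM + 1, replicate 1 minus replicate 2, median removed; 25 genes beyond 1.5 in either direction are not drawn. Lower panel, the same difference for each regulator (points) and the 95% counting interval of its CPM ratio (bars, log2 scale). All 10 points lie inside the dashed 2-fold lines, and Pparg, Ppara and Esrrb lie farthest to the right at 0.45, 0.44 and 0.38.

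Markers of some other tissues and cell types also differed between the libraries, while the sums of others were close. The 6 endothelial markers summed to 308 and 302 TPM and the 5 fibroblast markers to 641 and 639 TPM, in replicates 1 and 2. Single genes within these lists went in opposite directions. Deposited intervals lay apart with replicate 1 higher for Cdh5 (101.31 and 93.37 TPM) and Dcn (185.06 and 172.30 TPM). They lay apart with replicate 2 higher for Kdr (37.56 and 46.82 TPM) and Lum (39.39 and 43.74 TPM). The 4 airway epithelium markers, headed by Scgb1a1, a secreted protein of airway club cells, at 97.57 TPM in replicate 1 and 5.96 TPM in replicate 2, were all called, and their sum was 174 TPM in replicate 1 and 10 TPM in replicate 2. The 3 red blood cell markers summed to 24081 and 18474 TPM, and the 6 macrophage markers to 81.5 and 62.5 TPM, in replicates 1 and 2. Of the macrophage markers, Lyz2 (38.91 and 25.89 TPM), Cd163 (7.02 and 3.79 TPM), C1qa (16.37 and 13.55 TPM) and Csf1r (13.46 and 13.16 TPM) were higher in replicate 1. Cd68 (2.36 and 2.61 TPM) and Adgre1 (3.42 and 3.46 TPM) were slightly higher in replicate 2. The 8 adipocyte markers summed to 571 TPM in replicate 1 and 492 TPM in replicate 2, most of it Fabp4, a fatty acid carrier also known from capillary endothelium, at 488.27 and 411.36 TPM. Cfd (32.34 and 28.26 TPM), Cidec (7.15 and 6.42 TPM), Retn (2.18 and 1.85 TPM) and Lipe (23.03 and 22.91 TPM) were also higher in replicate 1. Adipoq (7.88 and 9.71 TPM), Plin1 (10.35 and 11.38 TPM) and Lep (0.29 and 0.31 TPM) were higher in replicate 2. The median log2 difference of the 8 markers, replicate 1 minus replicate 2, was 0.10. Of the 4 brown fat markers, Ucp1 (32.61 and 47.76 TPM) and Cidea (32.49 and 39.90 TPM) passed 1 TPM, and the list summed to 66.3 TPM in replicate 1 and 88.9 TPM in replicate 2. Their part in the levels and differences of Pparg, Ppara, Esrrb and the PGC-1 genes was not tested. The label heart was borne out by cardiomyocyte markers: all 6 were present, headed by Myh6, the heavy chain of heart myosin, at 10296 and 10478 TPM.

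A gene's TPM is the sum over its transcripts, and the share of each transcript showed which forms the levels above rest on. The 10 genes have 53 annotated transcripts, with 1 for Perm1 and 3 to 9 for the others. Of the 9 genes with several, 6 had a transcript holding at least 50% of the TPM in the mean of the libraries: Esrra-201 (91.5% ± 1.17), Ppargc1b-202 (88.6% ± 0.898), Rxra-201 (84.9% ± 3.77), Ppara-202 (71.1% ± 0.410), Ppard-201 (60.1% ± 4.42) and Esrrb-204 (56.2% ± 21.2), each SD with n = 2. Each of these 6 is protein-coding and was also the leading transcript in the second quantification, though with other shares. Ppargc1b-202 held 56.9% there and Ppargc1b-201, at 0% in the first quantification, 43.1%. Esrra-201 held 76.8% there. Ppargc1a, Esrrg and Pparg had no transcript above 50% in the first quantification.

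In Ppargc1a the TPM is split between start sites 13804 bases apart. Ppargc1a-203, the full-length coding form of 6464 bases from the downstream start, held 40.8% of the gene's TPM in replicate 1 and 42.8% in replicate 2. Ppargc1a-202, a coding form annotated with only 488 bases from the upstream start, held 36.8% and 33.5%. In the second quantification Ppargc1a-202 held 38.2% and Ppargc1a-203 36.7% in replicate 1. In replicate 2 they held 36.0% and 37.7%, so there the leading form differed between the libraries. The expected counts of these forms in the first quantification differed far more, since TPM divides by length. Ppargc1a-202 had 202.0 and 158.3 expected counts, 4.24% and 3.69% of the gene's. Ppargc1a-203 had 76.9% and 77.3% of the counts. The upstream start as a whole held 35.1% ± 2.34 of the TPM and 3.96% ± 0.383 of the counts, and 41.9% ± 7.25 of the TPM in the second quantification (SD, n = 2). An upstream start of Ppargc1a is known from skeletal muscle and brown fat as the site of exercise- and cold-induced forms. The gene's level of 50.24 and 44.82 TPM became 24.41 and 23.61 TPM over protein-coding transcripts of at least 1000 bases. That sum leaves out Ppargc1a-202 and also Ppargc1a-201, a form from the downstream start annotated for nonsense-mediated decay, not as protein-coding. Ppargc1a-201 held 14.65% of the TPM in replicate 1 and 13.88% in replicate 2.

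The bases just before the upstream start are shown because they begin a start that holds a large share of TPM and a small share of reads. The window is chr5:51567727-51567975 on the minus strand, from RefSeq promoter windows on GRCm38.p6, cut to bases outside annotated exons.
Ppargc1a upstream start: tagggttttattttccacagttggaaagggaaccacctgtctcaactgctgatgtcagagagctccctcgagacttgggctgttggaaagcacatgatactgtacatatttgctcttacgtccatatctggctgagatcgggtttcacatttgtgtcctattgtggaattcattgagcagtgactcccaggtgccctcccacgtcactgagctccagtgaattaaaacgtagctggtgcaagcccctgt

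The start sites of Esrrb held different shares of the gene in the 2 libraries. Esrrb-204, from the first start, held 71.2% of the gene's TPM in replicate 1 and 41.2% in replicate 2, or 545.6 and 229.4 expected counts. Esrrb-203, from the second start 60527 bases downstream, held 14.4% in replicate 1 and 46.8% in replicate 2, or 107.7 and 253.9 expected counts. The interval of the transcript's own TPM, 3.46 to 5.06 in replicate 1 and 1.25 to 2.74 in replicate 2, did not overlap for Esrrb-204, while the intervals of Esrrb-203, 0.424 to 1.84 and 1.37 to 2.93, did. In the second quantification Esrrb-204 led in both libraries, with 74.8% and 56.3%, and replicate 1 was again the higher.

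The bases before each Esrrb start are shown because the leading transcript differed between them. Both windows are on the plus strand of GRCm38.p6, chr12:86360867-86361116 before the first start and chr12:86421394-86421643 before the second, and both are RefSeq promoter windows cut at the start site.
Esrrb first start: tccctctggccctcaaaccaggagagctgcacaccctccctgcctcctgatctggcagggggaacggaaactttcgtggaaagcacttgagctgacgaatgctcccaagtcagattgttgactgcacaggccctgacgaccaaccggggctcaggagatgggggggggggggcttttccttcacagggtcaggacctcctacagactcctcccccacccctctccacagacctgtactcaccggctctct
Esrrb second start: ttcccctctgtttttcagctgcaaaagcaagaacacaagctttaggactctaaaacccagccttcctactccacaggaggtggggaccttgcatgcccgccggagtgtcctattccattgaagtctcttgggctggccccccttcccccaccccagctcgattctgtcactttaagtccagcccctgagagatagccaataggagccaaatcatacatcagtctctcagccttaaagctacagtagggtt
Of the first window 60.8% of the bases are G or C, and of the second 52.0%.

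Pparg had 5 groups of start sites. Pparg-202 and Pparg-204, which share a coding length of 1425 bases and begin 1341 bases apart, held 28.0% and 35.3% of the TPM in replicate 1 and 20.1% and 42.2% in replicate 2. Pparg-201, with 1515 coding bases, begins 61115 bases downstream of the first start. This longer coding form matches PPAR gamma 2, the form known from fat cells. It held 19.8% of the TPM in replicate 1 and 26.2% in replicate 2 in the first quantification, from 83.7 and 76.5 expected counts, but 3.26% and 0% in the second. The 2 quantifications also named different leading transcripts, Pparg-204 in the first and Pparg-202 in the second. The interval of Pparg-201 reached from 0.654 to 3.16 TPM in replicate 1 and from 0.620 to 3.23 TPM in replicate 2, so its level was set only within a wide range.

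The window before the Pparg-201 start, chr6:115421816-115422065 on the plus strand of GRCm38.p6, is shown because it lies before the start of the form on which the quantifications disagree.
Pparg downstream start: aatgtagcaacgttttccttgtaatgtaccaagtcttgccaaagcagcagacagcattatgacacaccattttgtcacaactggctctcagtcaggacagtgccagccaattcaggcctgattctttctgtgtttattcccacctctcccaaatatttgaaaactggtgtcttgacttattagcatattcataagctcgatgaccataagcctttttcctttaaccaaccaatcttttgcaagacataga

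In Esrrg a short form again weighed on the TPM. Esrrg-201, of 5293 bases, begins 389036 bases downstream of the first start and held 45.8% of the TPM in replicate 1 and 41.4% in replicate 2. Esrrg-204, annotated with 450 bases, held 30.1% and 34.3% of the TPM, but 3.06% and 3.71% of the expected counts. The most downstream start, that of Esrrg-201, held 73.8% ± 4.73 of the gene's counts (SD, n = 2). In the second quantification Esrrg-204 held 36.1% and Esrrg-201 30.6% in replicate 1, and Esrrg-204 35.5% and Esrrg-201 38.0% in replicate 2, so the leading form differed between the libraries. Over protein-coding transcripts of at least 1000 bases Esrrg stood at 9.94 and 10.03 TPM in replicates 1 and 2, below Ppard at 12.23 and 10.81 TPM.

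**Figure D3:**
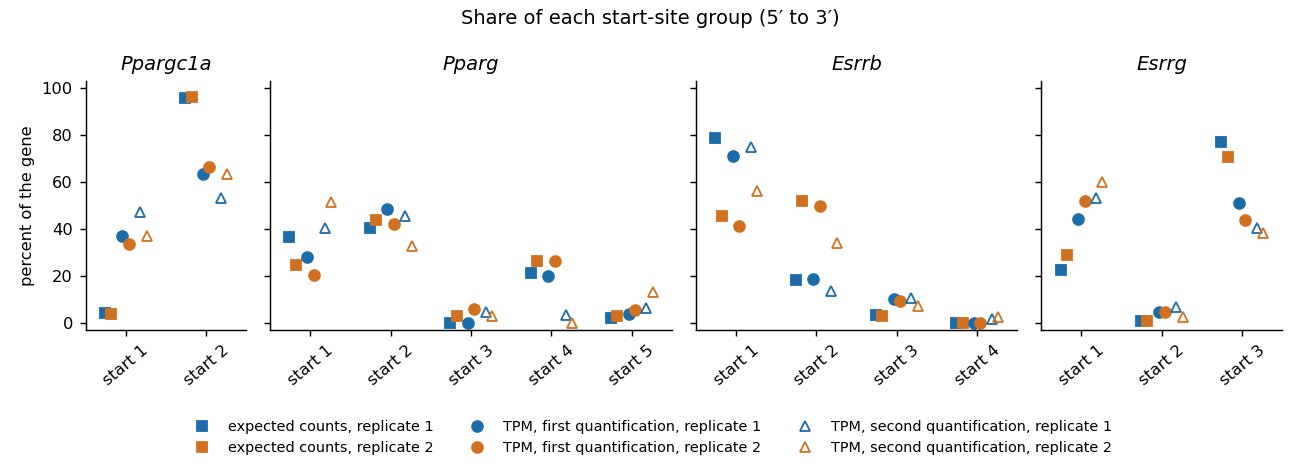
Percent of each gene held by groups of transcripts that start within 500 bases of each other, numbered 5′ to 3′, for 4 genes whose shares differ between measures or libraries. Squares are shares of expected counts, circles shares of TPM in the first quantification and triangles shares of TPM in the second. In Ppargc1a the first start holds 35.1% of the TPM but 3.96% of the counts, and in Esrrb starts 1 and 2 hold 78.6% and 18.0% of the counts in replicate 1 and 45.2% and 51.7% in replicate 2.

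RefSeq held 16 promoter windows of 300 bases, on GRCm38.p6, for 9 of the 10 genes. They were searched on both strands for the ERR element AAGGTCA, for the PPAR and RXR element, a direct repeat of AGGTCA with 1 base between the copies, which can overlap the first, and for the cAMP response element TGACGTCA. The ERR element occurred in 2 of the 16 windows, 12.5%, against 4.72% of 32851 windows of all genes. It was in 0 of 12 windows of the ERR target genes, which covered 9 of the 12 genes in that list. Among the PPAR target genes it was in 1 of 19 windows, 5.26%, which covered 18 of the 26 genes. The matches were in Perm1, 202 to 196 bases before its RefSeq start, and before the second RefSeq start of Rxra, whose transcript Rxra-202 held 0 expected counts in both libraries in the first quantification, and in the second 4.81% of the gene's TPM in replicate 1 and about 0% in replicate 2. The other motifs were in 0 of the 16 windows, against 0.0396% of all windows for the direct repeat and 1.79% for the cAMP element. No window lay at Ppargc1b or at the downstream start of Ppargc1a, which held 96.0% ± 0.383 of that gene's counts (SD, n = 2). These starts were thus not searched for any of the motifs, and for Ppargc1a only the upstream start was. The window before Perm1, the gene with the highest level, is shown with the match in capitals, which reads on the opposite strand as the ERR element. It is chr4:156215677-156215867 on the plus strand.
Perm1: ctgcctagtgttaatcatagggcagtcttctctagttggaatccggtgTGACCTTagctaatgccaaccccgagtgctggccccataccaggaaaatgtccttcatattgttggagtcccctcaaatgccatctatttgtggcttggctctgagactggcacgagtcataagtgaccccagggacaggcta
A match in this window is a run of letters and was not measured as a binding site.

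The genes that work with the 10 regulators were present throughout. The 9 further coactivators were all at 1 TPM or more, with a median of 16.6 ± 0.919 TPM (SD of the library medians, n = 2). Lpin1, a lipid phosphatase that also acts with PGC-1 alpha on PPAR alpha, led them at 54.48 TPM in replicate 1 and 47.04 TPM in replicate 2. The acetyltransferase genes Ep300 (23.89 and 17.33 TPM) and Crebbp (21.68 and 19.39 TPM) and the receptor coactivator gene Ncoa2 (18.16 and 17.37 TPM) followed. The 7 corepressor genes, also all present, had a median of 19.0 ± 1.41 TPM (SD, n = 2), and among them were Ncor1, a large corepressor of nuclear receptors (55.05 and 60.59 TPM), and Tbl1xr1 (27.73 and 28.40 TPM) and Hdac3 (17.99 and 19.98 TPM) of the same complex. By the rule of size 0 of the 9 and 0 of the 7 were called different between the libraries.

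Upstream of PGC-1 alpha, kinases and transcription factors known to act on it were also present. All 10 fixed genes passed 1 TPM, with a median of 18.3 ± 0.247 TPM (SD of the library medians, n = 2). The muscle transcription factor genes Mef2a (65.53 and 70.37 TPM), Mef2d (54.28 and 54.32 TPM) and Mef2c (31.26 and 34.01 TPM) led, with Prkaa2, a catalytic subunit of AMP-activated kinase, at 28.44 and 29.66 TPM. The 8 factors of mitochondrial biogenesis, which include nuclear transcription factors and proteins that act on mitochondrial DNA, had a median of 16.3 ± 0.969 TPM (SD, n = 2). They were headed by Tfam, which packs mitochondrial DNA (23.67 and 21.69 TPM), Polrmt, the mitochondrial RNA polymerase (19.60 and 18.65 TPM), Gabpa, a nuclear transcription factor (17.36 and 17.26 TPM), and Tfb2m, a mitochondrial transcription factor (17.71 and 16.52 TPM). By the rule of size 0 of the 10 and 0 of the 8 were called different.

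Known target genes stood far above the regulators themselves. Of 26 PPAR target genes 22 were at 1 TPM or more in both libraries, and the median over all 26 was 59.0 ± 3.31 TPM (SD of the library medians, n = 2), beside 18.0 TPM for the 10 regulators. Fabp3, the fatty acid carrier of heart muscle, led at 2310 TPM in replicate 1 and 2531 TPM in replicate 2. Hadhb (732.56 and 780.77 TPM) and Acaa2 (732.25 and 750.77 TPM), both of mitochondrial beta-oxidation, and Cd36, the fatty acid uptake receptor (734.06 and 613.48 TPM), followed. The 12 ERR target genes were all present, with a median of 624 ± 5.02 TPM (SD, n = 2). Atp5b of ATP synthase (3492 and 3655 TPM), Slc25a4, the ADP/ATP carrier (2025 and 1986 TPM), and Cox5a of cytochrome c oxidase (956.97 and 961.87 TPM) led.

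The PPAR targets below 1 TPM, named after their values were seen, were Vnn1, Cyp4a10, Cyp4a14 and Fgf21, genes best known as PPAR targets in liver. Cyp4a10 had 3 expected counts in each library and Fgf21 had 0, where a count of 0 allows up to 3. Angptl4, which encodes an inhibitor of lipoprotein lipase, was the only PPAR target called different between the libraries. It had 8.56 TPM in replicate 1 and 20.52 TPM in replicate 2, from 467 and 1092 expected counts, a log2 difference of -1.14. Replicate 2 was the higher for Angptl4, the opposite of Ppara and Pparg. Of the 22 PPAR targets compared, deposited intervals lay apart with replicate 2 higher for 9, against 6.5% of all genes compared, and with replicate 1 higher for 2, against 5.62%. Of the 12 ERR targets, 1 had replicate 2 higher and 3 had replicate 1 higher, against the same 6.5% and 5.62%. Of the 6 cardiomyocyte markers, 5 had replicate 2 higher and 1 had replicate 1 higher. The median log2 difference of the 22 PPAR targets, replicate 1 minus replicate 2, was only -0.04. The intervals were compared without removing the median difference, and the shares over all genes were not matched for expected counts. A shift particular to PPAR targets was thus not tested. By the rule of size 0 of the 12 ERR targets were called.

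The 14 other nuclear receptors fixed for heart metabolism had a median of 7.73 TPM over their means and library medians of 7.27 TPM in replicate 1 and 7.03 TPM in replicate 2, and 11 were at 1 TPM or more. Thra, Nr3c1 of the glucocorticoid receptor (27.22 and 33.21 TPM), Nr1d2, a clock repressor (23.76 and 25.19 TPM), and Nr1h2 of liver X receptor beta (22.39 and 19.39 TPM) were the highest. In the ranking of 23 receptors Ppara, Rxra, Ppard and Esrrg took places 8 to 11, and Pparg and Esrrb places 15 and 16.

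**Figure D4:**
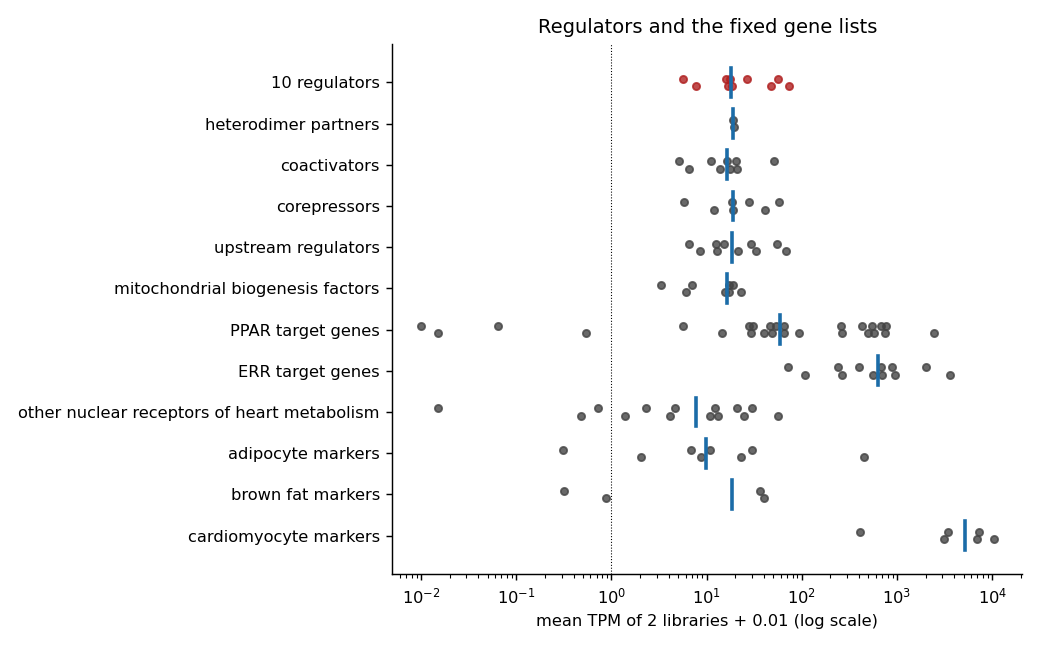
Mean TPM of the 2 libraries for each gene (points, with 0.01 added so that genes at 0 can be drawn on the log axis) in the 10 regulators and in fixed gene lists; bars are medians and the dotted line marks 1 TPM. The median of the regulators, 18.0 TPM, lies near those of coactivators and corepressors, at 16.6 and 19.0 TPM, and below those of PPAR and ERR target genes, at 59.0 and 624 TPM.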

How the data were processed

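Total RNA sequencing of 2 heart libraries was analysed from the tables the authors deposited. Per the labels and the deposited readme files, the assembly is mm10 and the annotation GENCODE M21; the aligner, the quantification programs and the use of strand were not given in the sources used here. A first quantification, per the file headers, gives the expected count of each gene and transcript, not normalized, the TPM, scaled by effective length to a common sum, and each transcript's percent of its gene. Beside these stand, per the file headers, a posterior mean TPM and its lower and upper bounds, treated as a score of precision because the headers do not state their level. The second quantification, per the file headers, gives an estimated count and TPM per transcript, which were summed per gene. Expected counts totalled 36404376 in replicate 1 and 34569708 in replicate 2, and 36197643 and 34358598 over annotated genes only. Exact Clopper-Pearson intervals (95%) and the limit that a count of 0 allows (3 counts) cover counting error only.

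With 1 group of 2 libraries no test was possible, so values are given as mean ± SD (n = 2). Differences between the libraries used log2(TPM + 1), with a pseudocount of 1 and the median difference removed, over the 12876 genes that averaged at least 50 expected counts. Transcripts were grouped where neighbouring starts lay within 500 bases. Promoter windows came from RefSeq and genome bases from GRCm38. Software was Python 3.11.15 (pandas 2.3.3, numpy 2.4.6, matplotlib 3.10.9, scipy 1.17.1) and R 4.3.3 with edgeR 4.0.16 (TMM) and DESeq2 1.42.0 (size factors) for scaling only.

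Named genes are all 10 regulators, the 4 genes of each pathway list with the highest mean TPM, those called different, the genes of the 10 pairs, and transcripts holding at least 10% of a gene's TPM. Some genes that this rule names are not reported here. The regulators, lists and rules were chosen with earlier results of these data known. The second quantification, posterior means, other pseudocounts, filters, folds and scalings, and leaving out each library were tried as alternatives, and long coding transcripts were added after seeing the data.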

Additional observations from a re-analysis of the deposited data

How the results depend on the processing

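All 10 regulators stayed at 1 TPM or more under each alternative quantification or estimate and with either library alone, and 9 reached 5 TPM in both; 0 of 10 were called different under every alternative run, with 0.0954% to 1.65% of all genes called. Of the level ratios (log2), the second quantification gave 0.87 for Ppara over Pparg, 1.90 for Esrra over Esrrg, -0.21 for Rxra over Rxrb and -0.064 for Rxra over Rxrg. Posterior means gave 1.12 for Ppara over Pparg and -0.070 for Rxra over Rxrg. Long coding transcripts alone gave 1.20 for Ppara over Pparg, 2.35 for Esrra over Esrrg, 0.037 for Ppargc1a over Ppargc1b, 1.61 for Perm1 over Ppargc1a and -0.20 for Rxra over Rxrg, and turned Rxra over Rxrb to 0.30. These follow from leaving out short and non-coding transcripts by construction; the cause of the other shifts was not tested. List medians in the second quantification were 21.3 TPM for the other 2 RXR genes, 23.0 for corepressors, 24.4 for upstream regulators, 17.9 for mitochondrial factors, 65.0 for PPAR targets, 710 for ERR targets and 9.88 for other receptors. With 1 library left out, the median was 54.8 to 59.5 TPM for PPAR targets and 7.03 to 7.27 for other receptors. Scaling to nuclear protein-coding genes raised all 10 levels, to 170.7 TPM for Perm1, 42.9 for Ppara and 13.2 for Esrrb. The transcript shares of Ppargc1b-202 and Esrra-201 were 56.9% and 76.8% in the second quantification, beside 88.6% and 91.5% in the first. No paired analysis was possible because the series has 1 group.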

Other observations

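A few genes around the 10 regulators stood out and were picked after their values were seen. Ucp3, a PPAR target that encodes an uncoupling protein of muscle mitochondria, had 20.93 TPM in replicate 1 and 37.56 TPM in replicate 2. Its log2 difference of -0.79, replicate 1 minus replicate 2, had the same direction as that of Angptl4, at -1.14, and the opposite direction to Ppara, at 0.44. Nr1d1, which encodes the clock repressor REV-ERB alpha, had 8.67 TPM in replicate 1 and 17.76 TPM in replicate 2, while its relative Nr1d2 had 23.76 and 25.19 TPM. Cycs, the cytochrome c gene among the ERR targets, was the list's lowest gene in the first quantification, at 73.64 TPM in replicate 1 and 71.05 TPM in replicate 2. The second quantification gave Cycs 868 and 881 TPM. The cause of this gap was not tested, and the level of Cycs is uncertain. Inside the span of Ppargc1a, the unconfirmed same-strand genes Gm42614, Gm42615 and Gm43605 had 55, 63 and 84 expected counts in replicate 1 and 30, 34 and 52 in replicate 2. Mir378a, which lies within Ppargc1b, had 0 expected counts in both libraries, which allows up to 3, and what these libraries hold of RNA that short was not measured here.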
